A study of Mus musculus with 6 samples.

Results

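The genes described here build the calcium store of the heart muscle cell and the narrow cleft, the dyad, in which the store faces the surface membrane. They are Ryr2, Jph2, Asph, Casq2, Hrc, Atp2a2, Pln, Cacna1c, Slc8a1 and Camk2d, and every probe set that the platform annotation lists with 1 of these 10 symbols was taken, which gave 12 of the 35556 probe sets on the arrays (10 of 19938 genes with a probe set of their own). Slc8a1 and Jph2 have 2 probe sets each and the other 8 genes have 1. RNA came from hearts of 3-month-old male mice, either wild-type (WT) or homozygous for the VAChT KD allele, which lowers the vesicular acetylcholine transporter in the whole body, and no treatment was given. Gene expression was measured on 6 Affymetrix arrays, 3 per genotype, each of which held a pool of 2 RNA samples. The labels give the strain as C57BL/6, whereas the study's methods describe a mixed background with few backcrosses to that strain, and ventricles as the tissue. Because the whole animal carries the allele, the heart muscle cell and its nerve supply cannot be told apart as the site of any difference.

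In ventricular myocytes each beat begins when the L-type channel in the surface membrane lets in a little calcium, which opens the ryanodine receptor of the sarcoplasmic reticulum, so that the store releases much more. Relaxation follows when the SERCA pump returns calcium to the store and the sodium-calcium exchanger moves the rest out of the cell. Acetylcholine from the vagus and noradrenaline from sympathetic nerves act on this cycle largely through phosphorylation of its proteins, and lower SERCA and higher exchanger expression are textbook features of the failing heart. The comparison between genotypes asks whether the transcripts of this machinery differ when cholinergic tone is low for a long time.

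Signals are given as log2 values, on which 1 unit is a doubling, and a difference is always the mean of the VAChT KD arrays minus that of the WT arrays, with the standard error and 95% interval of limma. The 95th percentile of olfactory receptor probe sets (6.50) was taken as a level close to background, and all 12 probe sets read above it. The cardiomyocyte markers Myl2, Myh6 and Tnni3 read between 12.91 and 14.49 on the 6 arrays, so genes of heart muscle were present. Slc18a3, which encodes VAChT, differed by -0.08 (standard error 0.20) and so did not separate the labelled groups. Ogdhl, an oxoglutarate dehydrogenase-like gene, read 7.21 on WT 2 against 9.60 and 10.33 on WT 1 and WT 3, and 10.17 on VAChT KD 2 against 7.06 and 7.09 on VAChT KD 1 and VAChT KD 3. At this gene the arrays labelled WT 2 and VAChT KD 2 each read like the other group. The study lists Ogdhl as lower and a probe set of Trdn, triadin, as higher in VAChT KD, both by more than the arrays give as labelled. As labelled, Ogdhl differed by -0.94 (standard error 1.03, limma unadjusted p = 0.391). That Trdn probe set, 10362454, read below the olfactory level and differed by 0.28 (standard error 0.18, limma unadjusted p = 0.174). Whether the labels of WT 2 and VAChT KD 2 were exchanged was not tested. Groups are kept as labelled, so every difference below may mix genotypes if they were, and the members' results are also given without both arrays. VAChT KD 1 stood apart in another way. Its brightest probe set read 13.70, whereas the maximum was 14.71 to 14.90 on the other 5 arrays. Nothing in the labels says that pools came from separate litters or days, so the p-values measure the spread between these pools.

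None of the 12 probe sets differed between the labelled groups at an unadjusted p of 0.05, a threshold that 11.7% of all probe sets passed in limma. None passed that threshold together with a 1.3-fold difference, which 3.79% of all probe sets did in limma and 1.65% in the methods' own test, also with none of the 12. None passed an adjusted p of 0.05, which 0.00281% of all probe sets, a single one, did. The smallest unadjusted p among the members was 0.0526 and the smallest adjusted p was 0.427, both for the second probe set of Slc8a1 (limma, Benjamini-Hochberg over all probe sets). Of the 12 differences 9 lay above and 3 below 0, with a median of 0.09 beside a median of -0.02 over all probe sets. For 9 of the 12 the 95% interval lay wholly inside a 1.3-fold difference in either direction, a count that was 8 without VAChT KD 1, 12 after quantile normalization and 5 without both arrays numbered 2. The exceptions as deposited were the pump Atp2a2, its inhibitor Pln and the second probe set of Slc8a1.

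**Figure D1:**
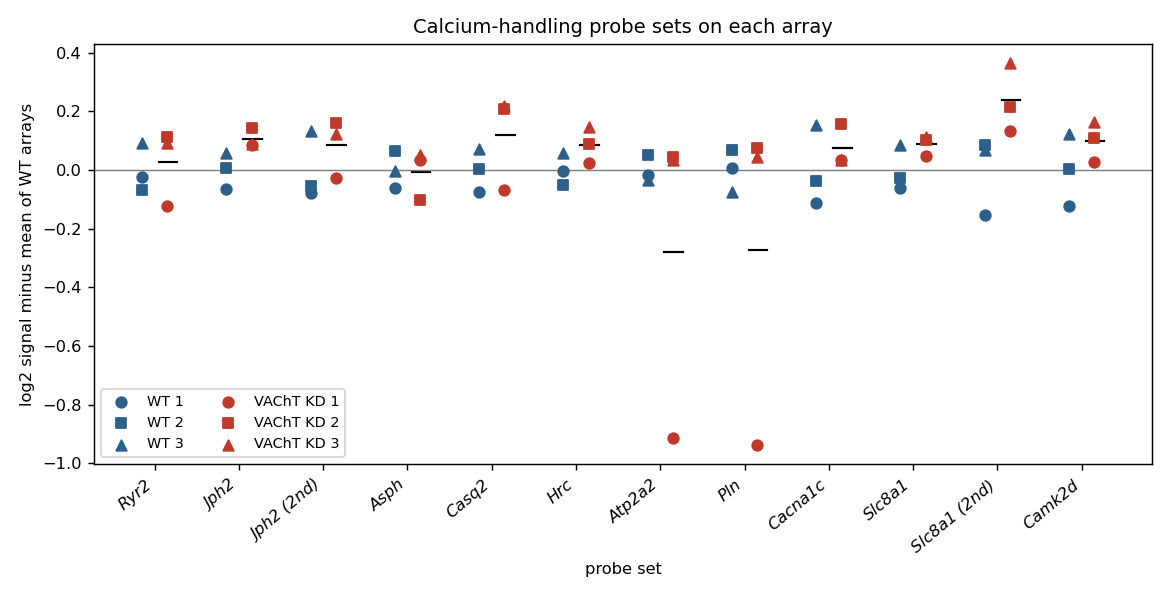
Log2 signal of each probe set on each of the 6 arrays, minus the mean of the 3 WT arrays (vertical axis), for the 12 probe sets (horizontal axis, 2nd marks a gene's second probe set); black bars are the means of the VAChT KD arrays. VAChT KD 1 lies far below all other arrays for Atp2a2 and Pln, and the 3 VAChT KD arrays lie above the 3 WT arrays for the second probe set of Slc8a1.

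The pump and its inhibitor gave the widest differences of the 10 genes, and both rested on VAChT KD 1. Atp2a2 encodes SERCA2, which pumps calcium back into the sarcoplasmic reticulum. At its probe set, 10533483, it read 14.44, 14.51 and 14.42 on WT 1, 2 and 3 and 13.54, 14.50 and 14.49 on VAChT KD 1, 2 and 3. VAChT KD 1 was low and the other 5 arrays lay within 0.1 of each other, so that the groups overlapped. The means were 14.45 ± 0.05 in WT and 14.18 ± 0.55 in VAChT KD (SD, n = 3 arrays each), and VAChT KD minus WT was -0.28 (limma standard error 0.25, 95% interval -0.85 to 0.30, adjusted p = 0.629).

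Pln encodes phospholamban, the small membrane protein that slows SERCA2 until it is phosphorylated. Its probe set, 10363157, read 14.44, 14.50 and 14.36 on WT 1, 2 and 3 and 13.50, 14.51 and 14.48 on VAChT KD 1, 2 and 3. The array that was low was again VAChT KD 1. The difference was -0.27 (standard error 0.26, limma adjusted p = 0.651, 95% interval -0.87 to 0.33). Without VAChT KD 1 it was 0.06 (standard error 0.09) for Pln and 0.04 (standard error 0.09) for Atp2a2, each on the other side of 0. Without both arrays numbered 2 it was -0.41 (standard error 0.31) for Pln and -0.41 (standard error 0.30) for Atp2a2.

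The low reading of these 2 probe sets on VAChT KD 1 was shared by every probe set of 14 or more. Of all probe sets 65 had a median over the 6 arrays of 14 or more, and all 65 were lowest on VAChT KD 1. They lay 0.68 to 1.11 below the median of the other 5 arrays there, with a median deviation of -1.002. Atp2a2 and Pln are themselves among the 65 and lay 0.95 and 0.98 below. As no probe set read above 13.70 on VAChT KD 1, any with a median of 14 or more had to read low there. Some of the unnamed ones carry the same values as another, so that the 65 hold 58 distinct rows. The 65 include heart muscle genes such as Actc1 (cardiac actin), Tnnt2 (troponin T), Tnni3 (troponin I) and Mb (myoglobin). They also include Rn7sk, a small nuclear RNA that cells of all kinds make, which read 14.45 to 14.52 on the other 5 arrays and 13.48 on VAChT KD 1. Rn7sk and Mb were picked after their values were seen.

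The deviation of VAChT KD 1 grew with the signal. Its median was -0.04 for the 1872 probe sets between 10 and 11, -0.10 for the 890 between 11 and 12, -0.18 for the 460 between 12 and 13 and -0.33 for the 153 between 13 and 14. The less bright members followed this course only in part. Ryr2, between 12 and 13, lay 0.21 below the other arrays and Casq2, in the same range, 0.14 below, whereas Cacna1c and Hrc, between 11 and 12, deviated by 0.001 and -0.04. The second probe set of Jph2, between 9 and 10, lay 0.15 below, where the median of its range was -0.03, and Asph, the first probe set of Jph2 and the second of Slc8a1 lay slightly above 0.

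On VAChT KD 1 both probe sets remained among the brightest. Ranked from the brightest down among the 35556 probe sets, Pln was number 42 on VAChT KD 1 and between 39 and 51 on the other 5 arrays, and Atp2a2 was number 30 on VAChT KD 1 and between 37 and 48 elsewhere. A further quantile normalization, which gives all arrays the same set of values, brought Atp2a2 to 14.36 on VAChT KD 1 against 14.27 to 14.33 on the other 5 arrays and Pln to 14.30 against 14.26 to 14.32. The difference was then 0.02 (standard error 0.06) for Atp2a2, with a 95% interval of -0.13 to 0.16. For Pln it was 0.01 (standard error 0.06), with a 95% interval of -0.13 to 0.16. The rank of a gene within an array says nothing about a change that all bright genes share, and whether VAChT KD 1 had less of these RNAs or a lower reading of them was not tested.

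**Figure D2:**
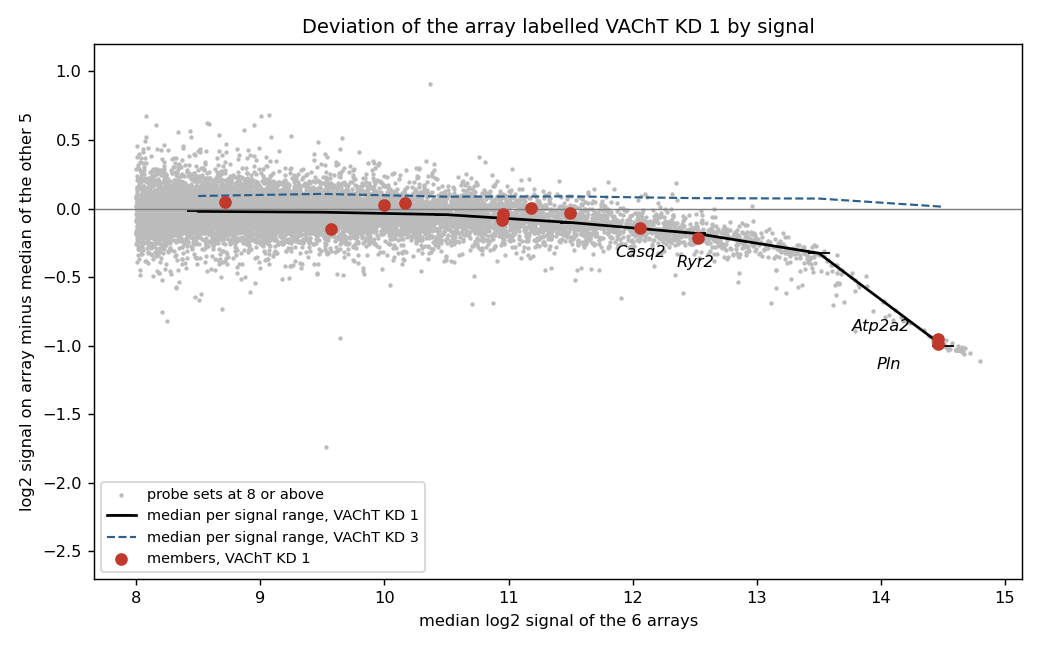
Log2 signal on VAChT KD 1 minus the median of the other 5 arrays (vertical axis) against the median log2 signal of the 6 arrays (horizontal axis) for all probe sets at 8 or above (grey), with the 12 calcium-handling probe sets in red and medians per signal range for VAChT KD 1 (solid) and VAChT KD 3 (dashed). The solid line bends down to -1.002 for the 65 brightest probe sets, among which Atp2a2 and Pln lie, and the dashed line does not.

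The pump and its inhibitor stayed close to each other on every array, VAChT KD 1 included. The log2 signal of Pln minus that of Atp2a2 lay between -0.06 and 0.01 on all 6 arrays, a range of 0.07. It differed between the groups by 0.005 (exact permutation test, two-sided, p = 0.8, n = 3 arrays each, smallest p possible 0.1). The sign of so small a difference has no weight, as it turned when WT 3 or VAChT KD 2 was left out. The log2 signal of Slc8a1 minus that of Atp2a2, exchanger against pump, read -3.61, -3.65 and -3.45 on WT 1, 2 and 3 and -2.61, -3.51 and -3.49 on VAChT KD 1, 2 and 3. The difference of 0.37 (exact permutation test, two-sided, p = 0.3, n = 3 arrays each) came from VAChT KD 1, and it was 0.07 without that array and 0.04 after quantile normalization. As these values set 2 different probe sets against each other, only their difference between arrays can be read.

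The genes of the release site differed between the groups by no more than the spread between arrays allows. Ryr2 encodes the ryanodine receptor, the channel through which the store releases calcium. It read 12.47, 12.43 and 12.59 on WT 1, 2 and 3 and 12.37, 12.61 and 12.59 on VAChT KD 1, 2 and 3. The lowest and the highest array were both VAChT KD arrays. The difference was 0.03 (standard error 0.10, limma adjusted p = 0.914, 95% interval -0.20 to 0.25), and it was -0.05 (standard error 0.14) without both arrays numbered 2.

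Jph2 encodes junctophilin, which ties the store to the T-tubule. Its brighter probe set, 10489355, read 9.86, 9.94 and 9.99 on WT 1, 2 and 3 and 10.01, 10.07 and 10.02 on VAChT KD 1, 2 and 3. The VAChT KD arrays were all above the WT arrays, but the gap between the nearest arrays was narrow. The difference was 0.10 (standard error 0.08, limma adjusted p = 0.567, 95% interval -0.07 to 0.28). Its second probe set, 10489357, had overlapping groups and differed by 0.09 (standard error 0.10), and by 0.02 (standard error 0.14) without both arrays numbered 2.

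Asph, which from different promoters makes an aspartyl hydroxylase and junctin, the partner that holds calsequestrin to the ryanodine receptor, read 10.09, 10.21 and 10.14 on WT 1, 2 and 3 and 10.18, 10.05 and 10.20 on VAChT KD 1, 2 and 3. Its difference of -0.01 (standard error 0.08, 95% interval -0.20 to 0.19) was the smallest of the 12. The single probe set 10511446 stands for all products of the gene, so junctin alone was not measured. It was also the member whose arrays followed no other member, with correlations of -0.42 to 0.19 to the other 9 genes over the 6 arrays.

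The transcripts of the calcium-binding proteins inside the store did not pass the test, with means that differed by about the size of their standard errors. Casq2, cardiac calsequestrin, the main calcium buffer of the store, read 11.95, 12.03 and 12.10 on WT 1, 2 and 3 and 11.95, 12.23 and 12.24 on VAChT KD 1, 2 and 3. VAChT KD 2 and 3 were above all WT arrays, and VAChT KD 1 sat at the level of WT 1. The difference was 0.12 (standard error 0.10, limma adjusted p = 0.625, 95% interval -0.12 to 0.36). Without VAChT KD 1 it was 0.21 (standard error 0.09, limma unadjusted p = 0.0580, adjusted p = 0.522), and without both arrays numbered 2 it was 0.08 (standard error 0.15). Hrc, the histidine-rich calcium binding protein, read 11.45, 11.40 and 11.51 on WT 1, 2 and 3 and 11.48, 11.55 and 11.60 on VAChT KD 1, 2 and 3. The difference was 0.09 (standard error 0.08, limma adjusted p = 0.638, 95% interval -0.10 to 0.27).

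Among the genes of the surface membrane the exchanger gave the difference that came nearest to a call. Slc8a1 encodes NCX1, the sodium-calcium exchanger, and has 2 probe sets. At the dimmer one, 10453231, it read 8.46, 8.70 and 8.68 on WT 1, 2 and 3 and 8.74, 8.82 and 8.97 on VAChT KD 1, 2 and 3. All arrays labelled VAChT KD lay above all labelled WT, by a narrow gap. It follows that those numbered 1 and 3 stayed apart without the arrays numbered 2, whose labels Ogdhl puts in doubt. VAChT KD 2, at 8.82, read above VAChT KD 1, at 8.74, so the groups would overlap with the labels of WT 2 and VAChT KD 2 exchanged. The means were 8.61 ± 0.13 in WT and 8.85 ± 0.12 in VAChT KD (SD, n = 3 arrays each), and VAChT KD minus WT was 0.24 (limma standard error 0.10, 95% interval -0.003 to 0.48, unadjusted p = 0.0526, adjusted p = 0.427). The unadjusted p lay just under 0.05 in some other settings. It was 0.0499 after quantile normalization, which put 10.3% of all probe sets under that threshold, 0.0458 after cyclic loess (9.78% of all) and 0.0447 without VAChT KD 1 (9.62% of all). Without both arrays numbered 2 it was 0.0968 (10.6% of all).

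At the brighter probe set of the exchanger, 10453233, the values were 10.83, 10.86 and 10.97 on WT 1, 2 and 3 and 10.93, 10.99 and 10.998 on VAChT KD 1, 2 and 3. Here the groups overlapped, as VAChT KD 1 lay below WT 3. The difference was 0.09 (standard error 0.08, limma adjusted p = 0.637, 95% interval -0.10 to 0.27). The 2 probe sets ran in parallel over the 6 arrays (Pearson r = 0.825), and WT 1 was the lowest array for both. Without WT 1 the difference of the dimmer probe set was 0.16 and that of the brighter one 0.06. Without both arrays numbered 2 they were 0.29 (standard error 0.15) and 0.07 (standard error 0.13).

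Groups that did not overlap were found at 19.2% of all probe sets, and with VAChT KD higher at 6.25%. Among the 12 probe sets there were 2, one of Slc8a1 and one of Jph2, both with VAChT KD higher. At both, VAChT KD 2 read above VAChT KD 1, so their separation rests on the labels of WT 2 and VAChT KD 2. Without both arrays numbered 2 these probe sets of Slc8a1 and Jph2 necessarily stayed apart, and Asph joined them. Fewer arrays separate more readily, and the share over all probe sets was not computed in that setting.

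Cacna1c encodes the pore of the L-type calcium channel. It read 11.03, 11.11 and 11.30 on WT 1, 2 and 3 and 11.18, 11.30 and 11.18 on VAChT KD 1, 2 and 3. The values of WT 3 and VAChT KD 2 were the highest and nearly the same. The difference was 0.08 (standard error 0.10, limma adjusted p = 0.741, 95% interval -0.15 to 0.30). It was 0.02 (standard error 0.14) without both arrays numbered 2, 0.02 without WT 1, 0.03 without VAChT KD 2 and 0.15 without WT 3.

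Camk2d, which encodes the main cardiac isoform of CaMKII, a kinase that phosphorylates the ryanodine receptor and phospholamban, read 10.75, 10.88 and 10.997 on WT 1, 2 and 3 and 10.90, 10.98 and 11.04 on VAChT KD 1, 2 and 3. The groups overlapped, and WT 1 was again the lowest array. The difference was 0.10 (standard error 0.09, limma adjusted p = 0.643, 95% interval -0.11 to 0.31), and it was 0.04 without WT 1 and 0.16 without WT 3.

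**Figure D3:**
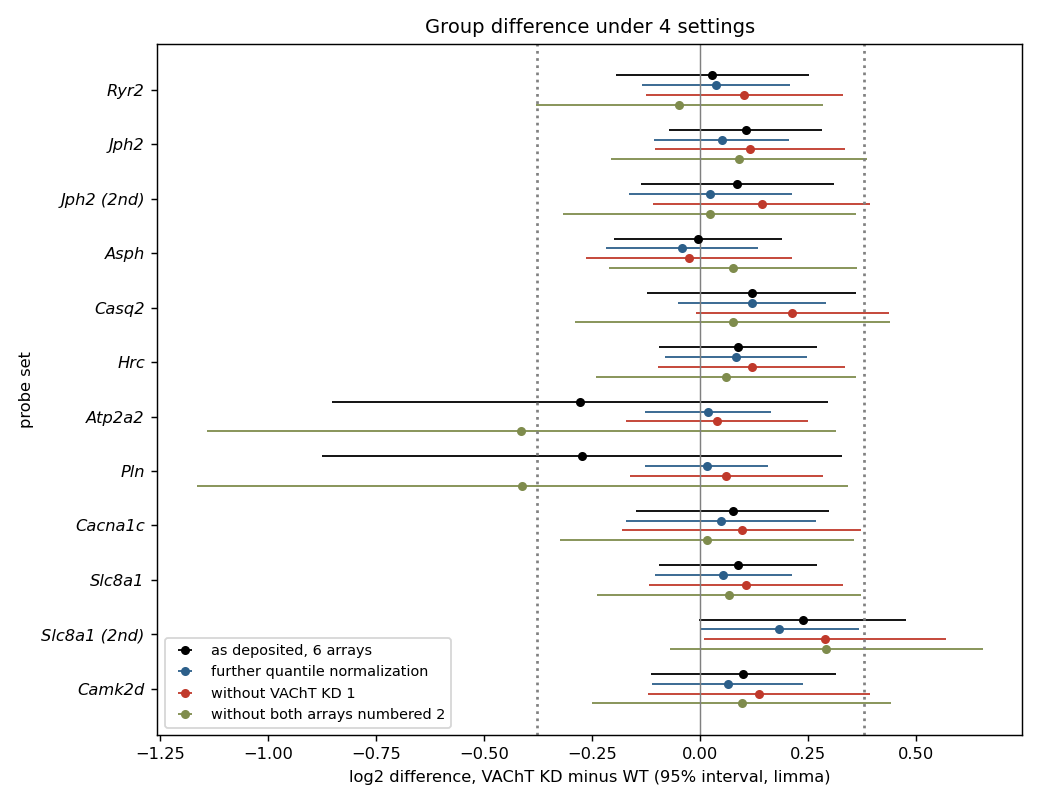
Log2 difference between VAChT KD and WT (horizontal axis, with the 95% interval of limma) for the 12 probe sets (vertical axis) under 4 settings; dotted lines mark a 1.3-fold difference. For Atp2a2 and Pln the values as deposited lie at -0.28 and -0.27 and move to 0.02 and 0.01 after quantile normalization, and the interval of the second probe set of Slc8a1 reaches past 0 as deposited and without both arrays numbered 2 but lies just above it in the other settings.

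Apart from the pump and its inhibitor, the members tended to be low or high on the same arrays. WT 1 was the lowest of the 6 arrays at 7 of the 12 probe sets, and VAChT KD 2 and VAChT KD 3 were the highest at 5 each. Averaged over the 8 genes other than Atp2a2 and Pln, the deviation from the mean of the 6 arrays was -0.10 on WT 1, -0.05 on WT 2 and 0.04 on WT 3, and -0.03, 0.07 and 0.08 on VAChT KD 1, 2 and 3. The array as a whole shifted with the signal. The median difference was 0.06 for all 4671 probe sets between 8 and 9, 0.07 for the 3131 between 9 and 10, 0.05 for those between 10 and 11 and 0.02 for those between 11 and 12, the ranges of all but 4 of the 12 probe sets. Between 12 and 13, where Ryr2 and Casq2 read, it was -0.01, the other way from both. After quantile normalization these medians were 0.01 in each of the 4 ranges from 8 to 12, and the median over the 12 members was 0.05. The part of this shift in the members' differences was not tested.

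Within the 10 genes, 32 of the 45 pairs had a positive Pearson correlation over the 6 arrays, with a median of 0.57, a description that rests on shared arrays. The highest was that of Atp2a2 with Pln at 1.00, which was 0.93 without VAChT KD 1. Slc8a1 and Camk2d followed at 0.95 and Slc8a1 and Jph2 at 0.91, both nearly the same without VAChT KD 1 (0.96 and 0.92). Ryr2 went with Casq2 at 0.86. Of 14463 other probe sets above the olfactory level, those whose pattern was most like that of Ryr2 over the 6 arrays were Lrrn4 (r = 0.997), Ddx60 (0.996), Unc119 (0.993), Fau (0.988) and Wipi2 (0.987), and 65 had a correlation above 0.95, as so few arrays allow.

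Around these 10 genes, 41 of 47 further genes of the calcium cycle had a probe set listed with that symbol alone. Each gene is first given by its brightest probe set, a choice that matters for triadin, described next. Of the 41, 20 lay above and 21 below 0, with a median difference of -0.005. At an unadjusted p of 0.05 none was higher and 1 was lower, against 9.79% in either direction over 19938 genes with 1 probe set each. None passed it together with 1.3-fold (1.27% of all genes did), and none passed an adjusted p of 0.05. For 32 of the 41 the 95% interval lay inside a 1.3-fold difference in either direction, and for 26 without VAChT KD 1 and 15 without both arrays numbered 2.

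Trdn encodes triadin, which links calsequestrin and the ryanodine receptor, and has 19 probe sets, more than any other gene of the lists. It was looked at in full after its values were seen. All 19 lay above 0, from 0.01 to 1.01 with a median of 0.33. The largest difference, 1.01, and the next, 0.82, came from probe sets below the olfactory level, and both are among the calls that follow. The largest above that level was 0.69. Of the 19, 10 passed an unadjusted p of 0.05, all higher in VAChT KD (11.7% of all probe sets passed in limma). Of those, 9 also passed 1.3-fold (3.79% of all). None passed an adjusted p of 0.05 (smallest 0.409, limma). The brightest probe sets moved least. The 5 with a mean of 11 or more lay between 0.01 and 0.10, and the 14 dimmer ones between 0.07 and 1.01.

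Among the dimmer ones, 10362426 read 8.39, 8.74 and 8.41 on WT 1, 2 and 3 and 9.32, 9.21 and 9.001 on VAChT KD 1, 2 and 3, without overlap. Its difference of 0.66 (standard error 0.13, limma unadjusted p = 0.00118, adjusted p = 0.409) had the smallest p of the 19. At 11 of the 19 the groups did not overlap (19.2% of all probe sets). The unadjusted threshold was passed by 11 without both arrays numbered 2 (10.6% of all) and by 10 after quantile normalization (10.3% of all). The mean over the 19 differed by 0.37 (standard error 0.09, limma unadjusted p = 0.00233, adjusted p = 0.272), where 14.5% of all genes passed an unadjusted p of 0.05 on such means. Probe sets of 1 gene share its transcripts and are not replicates, 3 of the 19 read close to background, and which exons each one covers was not analysed here. Tmem38b, a potassium channel of the store, also had probe sets that disagreed, the brighter at 0.08 and the dimmer at 0.32 (unadjusted p = 0.0165).

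At the brightest probe set of each gene, the one below that threshold was Fkbp1b, which encodes calstabin, a small protein bound to the ryanodine receptor. It read 6.12, 5.93 and 6.01 on WT 1, 2 and 3 and 5.85, 5.67 and 5.86 on VAChT KD 1, 2 and 3, without overlap but close to background. The difference was -0.23 (standard error 0.09, limma unadjusted p = 0.0394, adjusted p = 0.413), and the unadjusted p was 0.122 after quantile normalization and 0.128 without both arrays numbered 2. With single arrays left out it was 0.106 without WT 1, 0.0776 without WT 3, 0.0524 without VAChT KD 1 and 0.142 without VAChT KD 2. Probe sets between 6 and 7 had a median difference of -0.11 over the whole array, and those below 6 one of -0.06. The other 9 measured genes of the release unit lay between -0.01 and 0.09 at their brightest probe sets, among them Trdn at 0.01 (standard error 0.07), Sri, sorcin, at -0.01 and Fkbp1a at 0.07.

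In the uptake and luminal list 2 of 7 genes were above 0 and 5 below. Casq1, the calsequestrin of skeletal muscle, had the widest difference at -0.32 (standard error 0.19, limma adjusted p = 0.512). It read 9.11, 9.38 and 9.43 on WT 1, 2 and 3 and 9.41, 8.65 and 8.91 on VAChT KD 1, 2 and 3. VAChT KD 1 sat among the WT arrays and the other VAChT KD arrays lay below them, so that without VAChT KD 1 the difference was -0.53 (limma unadjusted p = 0.00823) and without both arrays numbered 2 it was -0.11. Atp2a3, a SERCA of non-muscle cells, had the smallest p of this list as deposited (difference -0.16, unadjusted p = 0.133). It differed by -0.29 without both arrays numbered 2 (unadjusted p = 0.0472). Sln, sarcolipin, the atrial counterpart of phospholamban, differed by 0.22 (standard error 0.19) and was highest on VAChT KD 3 at 7.55 against 6.80 to 7.04 on the others. Srl, sarcalumenin, and Calr, calreticulin, lay at -0.03 and -0.08.

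The T-tubule genes lay close together. Of the 5, Dysf, dysferlin, had the smallest p at a difference of 0.11 (standard error 0.09), and Bin1 and Cav3 lay at 0.0002 and 0.10. Of 7 partners and relatives of the L-type channel, Cacnb2, a beta subunit, had the smallest p at -0.10 (standard error 0.08), near background. Rrad, a small GTPase that restrains the channel, differed by -0.21 (standard error 0.22), with VAChT KD 1 at 10.04 and the other arrays at 10.63 to 10.97, by 0.04 without VAChT KD 1 and by -0.43 without both arrays numbered 2.

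Among calcium extrusion genes, the exchanger of neurons Slc8a2 differed by -0.17 (standard error 0.10) and the plasma membrane pump Atp2b1 by 0.09 (standard error 0.09). The CaMKII list held Camk2g at 0.15 (standard error 0.10), Camk2b at 0.08 (standard error 0.07) and Ppp1r1a, an inhibitor of protein phosphatase, at -0.20 (standard error 0.09, limma adjusted p = 0.444). Ppp1r1a was lower on all VAChT KD arrays (6.93 to 7.09) than on all WT arrays (7.12 to 7.33). The other release channels were Ryr1 at -0.14, Ryr3 at -0.12, Itpr2 at 0.02 and Itpr3 at -0.12. At 3 of these 4 the VAChT KD arrays lay below the WT arrays. Ryr3 read below the olfactory level and Ryr1 near it. After quantile normalization the differences were -0.06 for Ryr1, -0.03 for Ryr3 and -0.13 for Itpr3. Over all 41 genes the groups did not overlap at 1 with VAChT KD higher and 7 with it lower, beside 20% of all genes in either direction.

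**Figure D4:**
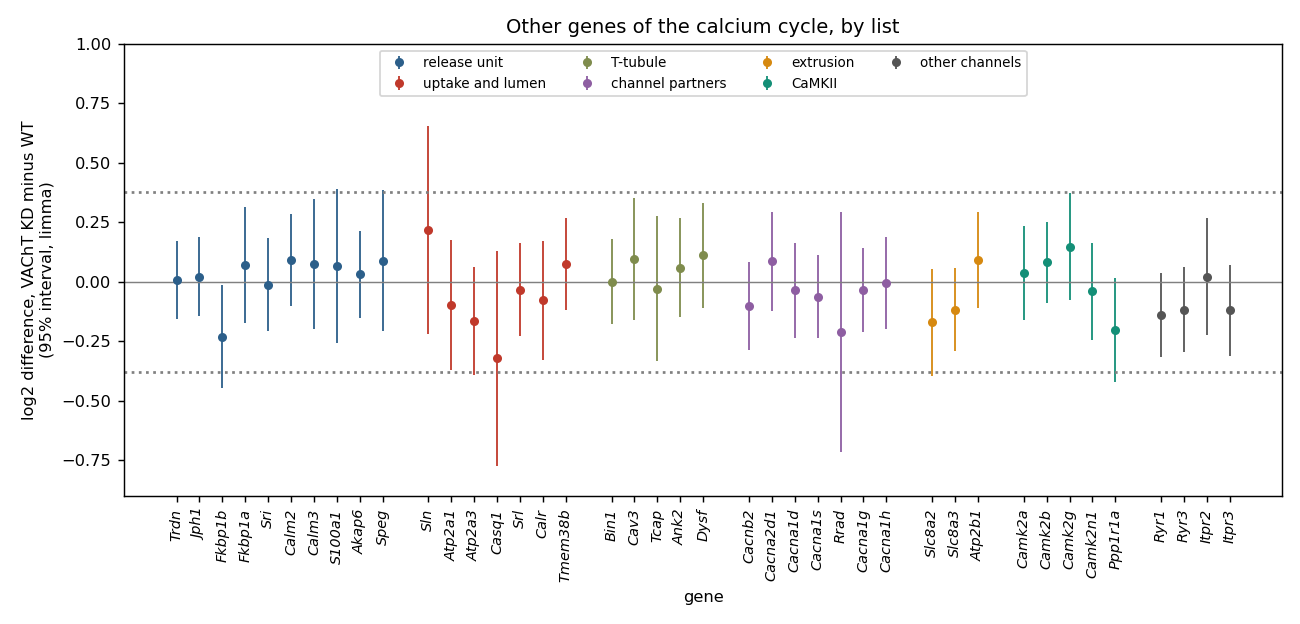
Log2 difference between VAChT KD and WT (vertical axis, with the 95% interval of limma) for 41 further genes of the calcium cycle (horizontal axis), coloured by list, each at its brightest probe set; dotted lines mark a 1.3-fold difference. All points lie between -0.32 (Casq1) and 0.22 (Sln), and Fkbp1b alone has an interval that leaves out 0.

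Markers of the cell types in heart tissue were read beside these results. The 10 cardiomyocyte markers were all lowest on VAChT KD 1, with a mean of 12.95 there against 13.49 to 13.62 on the other 5 arrays. Their median difference was -0.13, and it was -0.002 after quantile normalization and 0.06 without VAChT KD 1. Whole tissue was used, so fewer cardiomyocytes and less RNA per cardiomyocyte cannot be told apart. Whether VAChT KD 1 instead gave a lower reading of bright probe sets was not tested. The probe sets of the 10 calcium genes with a median below 12 deviated on VAChT KD 1 by -0.15 to 0.05. The 6 genes listed as markers of fast skeletal muscle, which also makes Casq1 and Ryr1, all lay below 0 (median -0.19). Of these, Myh4 and Mylpf did not read above the olfactory level. The list means were 6.89 to 7.07 on the WT arrays and 6.67 to 6.83 on the VAChT KD arrays. Actn3 and Tnni2 passed an unadjusted p of 0.05 in limma, as 9.79% of all genes did. Of all probe sets between 6 and 7, 26.7% lay above 0, and of those between 7 and 8, 43.8%. The list mean of VAChT KD 1, 6.80, lay between those of the other VAChT KD arrays, unlike Casq1. The part of these cell types in the results was not tested.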

How the data were processed

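RNA of hearts was hybridised by the authors to Affymetrix Mouse Gene ST arrays, and the probes were summarised with RMA in Partek, so the deposited values are log2 signals, already normalized across arrays. The genome build behind the probe sets is not given in the sources used here. Arrays were grouped by genotype and numbered as in their titles. The platform annotation supplied the gene names: 21789 probe sets carry 1 symbol, 1621 several and 12146 are unlisted, and those with several were not named. A linear model was fitted to all 35556 probe sets in limma (3.58.1, under R 4.3.3), moderated by eBayes, on the values as deposited and with no filter, and p-values were adjusted by Benjamini-Hochberg over all. A gene with several probe sets is headed by the one with the highest mean over the 6 arrays, and fold changes are ratios of geometric means. Genes named are all members, pathway genes past an unadjusted p of 0.05 or with the smallest p of their list, examples of each list, and the 5 genes most like Ryr2; Casq1, Rrad, Sln, all probe sets of Trdn and the other pathway examples were picked after their values were seen. The members, lists and tests were chosen with earlier results of these data known. Precision is limited by how few arrays there are, and 3 against 3 allow no exact permutation p below 0.1. The fit was tested on simulated data. Alternatives were a further quantile normalization, median centring, leaving out dim probe sets, a trended and robust eBayes, weights per array, a block for the replicate number, the methods' analysis of variance, each array left out, both arrays numbered 2 left out, and the mean over a gene's probe sets; cyclic loess was added after seeing the data.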

Additional observations from a re-analysis of the deposited data

How the results depend on the processing

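In none of 15 settings did a member probe set pass an adjusted p of 0.05, or an unadjusted p of 0.05 together with 1.3-fold. The count of member probe sets at an unadjusted p of 0.05 was 0 as deposited. It was 1, the second probe set of Slc8a1, after quantile normalization (10.3% of all probe sets passed), median centring (10.4%) and the filter on dim probe sets (12.2% of those kept). It was also 1 after eBayes with trend and robust variance (11.6% of all), cyclic loess (9.78%) and with the replicate number as a block (12.6%). With each array left out it ran from 0 to 1, the 1 being without VAChT KD 1 (9.62%). The count of pathway genes at that threshold was 1 as deposited (9.79% of all genes passed). It was 0 after quantile normalization, median centring, the filter (which removes Fkbp1b), eBayes with trend and robust variance and cyclic loess. With the methods' analysis of variance it was 4 (Fkbp1b, Slc8a3, Camk2b and Ryr1), where 8.67% of all probe sets passed. With the mean over a gene's probe sets it was 4 (Trdn, Tmem38b, Fkbp1b and Ppp1r1a), beside the share of all genes given with triadin. With each array left out it was 0 to 1, 0 without WT 1 or WT 3. Differences turned sign for Atp2a2 (0.0168) and Pln (0.0143) after quantile normalization, for Asph with median centring (0.0606) and without both arrays numbered 2 (0.0753), for Ryr2 without both arrays numbered 2 (-0.0488) and for Cacnb2 with cyclic loess (0.0170). With each array left out, Atp2a2 ran from -0.44 without VAChT KD 2 to 0.0392 without VAChT KD 1, Pln from -0.447 to 0.0598 in the same settings, Ryr2 from -0.0152 without VAChT KD 2 to 0.102 without VAChT KD 1 and Asph from -0.0372 without WT 1 to 0.0422 without VAChT KD 2. Pln minus Atp2a2 turned to -0.00249 after quantile normalization and ran from -0.0165 without WT 3 to 0.0207 without VAChT KD 1. Beyond the construction of each setting, the cause was not tested. Casq2, Jph2, Slc8a1, Cacna1c, Camk2d and Hrc had a positive difference in all 16 alternatives at the probe set that heads the gene. In that order the ranges were 0.07 to 0.21, 0.05 to 0.17, 0.05 to 0.16, 0.02 to 0.15, 0.04 to 0.17 and 0.06 to 0.15. The alternatives share arrays and labels, so a constant sign is not independent support. None of them exchanged the labels of WT 2 and VAChT KD 2, so the sign with those exchanged was not examined. As deposited, 71.0% of all probe sets between 10 and 11 lay above 0, 62.4% between 11 and 12 and 42.6% between 12 and 13, the ranges of these genes. Same-numbered arrays deviated together with correlations of 0.06, -0.12 and 0.13, and not every array correlated best with its own number. The numbers were therefore not taken as pairs. With the replicate block the member count at an unadjusted p of 0.05 was 1 and the pathway count 1. Exact permutation p-values within replicate numbers were 0.75 for Pln minus Atp2a2 and 0.5 for Slc8a1 minus Atp2a2. Fewer rearrangements are possible within numbers, so the smallest possible p is higher there than 0.1. With 3 arrays per group, intervals as wide as those of Atp2a2 and Pln leave out neither a 1.3-fold difference nor none.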

Other observations

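An unadjusted p of 0.05 was passed by 9.79% of all genes, and the share of probe sets above 0 changed with the signal, from 26.7% between 6 and 7 to 67.8% between 8 and 9, 75.02% between 9 and 10 and 71.0% between 10 and 11, so counts above 0 are to be read beside these. Other cell types of the heart were read from marker lists that hold none of the 10 genes. Atrial markers, of which Myl7 and Myl4 are myosin light chains, lay above 0 at 5 of 5 (median difference 0.22, that of Sln, which the uptake list also holds), with a list mean of 10.45 on VAChT KD 3 and 9.70 to 9.99 on the other 5 arrays, and none passed an unadjusted p of 0.05. Smooth muscle markers lay above 0 at 4 of 4 (median 0.17), and Tagln, transgelin, passed an unadjusted p of 0.05 at 0.22 (standard error 0.09). Endothelial and macrophage markers lay above 0 at 5 of 5 each, with medians of 0.05 and 0.13 and no member past that threshold. Fibroblast markers were above 0 at 2 of 6 (median -0.02), and adipocyte markers were below 0 at 3 of 3, with Plin1, perilipin, at -0.25 (standard error 0.11) past the unadjusted threshold and a list mean of 6.43 to 6.51 on the WT arrays against 6.27 to 6.37 on the VAChT KD arrays, near background. None of these passed an adjusted p of 0.05 in limma.

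The probe sets listed with 1 gene among the 65 brightest are 14 in number. Besides Atp2a2, Pln and the genes named with them, they are Baiap2l1, both probe sets of Cox6c, Atp5b, Ndufs7, Slc25a4 and Atp5d, most of them of mitochondrial energy supply. Over all 65 the difference between the labelled groups lay between -0.32 and -0.19, with a median of -0.30.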
